A study of Mus musculus with 15 samples.

Results

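The semaphorins, plexins and neuropilins form a family of guidance ligands and their receptors, and 31 of the 18073 genes in the deposited table belong to it. They were chosen by gene name: 20 semaphorins, 9 plexins and 2 neuropilins. Semaphorins carry a sema domain and signal to cells through plexins, whose cytoplasmic part switches off small GTPases of the Ras family. Class 3 semaphorins are secreted and, apart from Sema3e, need a neuropilin next to the plexin. Classes 4 to 6 span the membrane and bind plexins directly, and class 7 is held in the membrane by a lipid anchor. Neuropilins also bind VEGF beside its receptor kinases. In the heart this family steers neural crest and endothelial cells while the outflow tract and its valves form.

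RNA was sequenced from aortic valve leaflets, 3 per mouse, of 15 C57BL/6 mice aged 2 months. Long-telomere mice had intact Terc, the RNA template of telomerase, and were Notch1 wild type (4 mice) or Notch1 heterozygous (4 mice). Short-telomere mice were Terc nulls of generation 2 and were labelled Notch1 wild type (3 mice) or heterozygous (4 mice). The study asked what telomere length does in mice with a single working Notch1 copy. Which part of the gene the mutant allele lacks is not stated in the labels. The values are FPKM, fragments scaled to transcript length and library total, with 1 pooled value per gene and group. No value below carries an error, no difference has a replicate check, and read depth is unknown.

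Terc was at 1.42 and 4.52 FPKM in long-telomere wild type and heterozygous valves, and both groups with short telomeres had it listed at 0. Notch1 was at 39.1 and 25.1 FPKM in the same long-telomere groups. With short telomeres the group labelled wild type had 16.6 FPKM and the one labelled heterozygous 23.3 FPKM, which goes against those labels. Directions drawn from these groups below rest on the labels. Of 10 endothelial and 10 interstitial cell or fibroblast markers, all were above 0 in each group. Markers of other cell types were present too. The 8 cardiomyocyte markers summed to 3252 and 3867 FPKM with long and 3296 and 5254 FPKM with short telomeres, wild type first. Of the summed FPKM, 14.4% and 10% came from mitochondrially encoded genes with long telomeres, and 32.5% and 35.0% with short.

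The promoters of 3 members are shown because these members stood more than 2-fold higher in the group labelled with both changes than in the group with neither. They are Sema3g, Sema7a and Nrp2, picked after their values were seen. Each run gives the 250 bases before the RefSeq transcription start in build GRCm38.p6, on the plus strand. Capitals mark matches on either strand to the GC box, spelled GGGCGG, and to the core of the TATA box, spelled TATAA. The core bound by RBPJ, the DNA-binding partner of Notch, was also searched on both strands as TGGGAA.
Sema3g, chr14:31217623-31217872: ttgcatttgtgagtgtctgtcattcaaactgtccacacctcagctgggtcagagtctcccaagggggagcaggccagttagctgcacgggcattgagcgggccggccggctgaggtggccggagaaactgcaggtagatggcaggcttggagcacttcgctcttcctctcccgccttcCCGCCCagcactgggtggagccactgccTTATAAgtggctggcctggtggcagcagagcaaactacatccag
Sema7a, chr9:57939862-57940111: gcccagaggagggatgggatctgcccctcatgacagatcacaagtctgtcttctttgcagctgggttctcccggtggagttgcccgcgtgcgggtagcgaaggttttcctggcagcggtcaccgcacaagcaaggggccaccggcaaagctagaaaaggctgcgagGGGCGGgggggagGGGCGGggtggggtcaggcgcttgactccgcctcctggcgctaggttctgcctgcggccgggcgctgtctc
Nrp2, chr1:62703067-62703316: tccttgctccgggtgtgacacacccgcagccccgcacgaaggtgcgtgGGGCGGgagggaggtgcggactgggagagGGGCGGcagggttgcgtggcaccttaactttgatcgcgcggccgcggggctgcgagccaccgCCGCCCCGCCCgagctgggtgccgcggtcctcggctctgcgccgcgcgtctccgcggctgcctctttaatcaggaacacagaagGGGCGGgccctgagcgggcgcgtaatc

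Among these 3, Sema3g alone held a TATAA, 39 to 43 bases before its start on the shown strand. The matches on its 2 strands overlap by 4 bases. A GC box stood in all 3, with 1 match in Sema3g, 2 in Sema7a and 5 in Nrp2, of which 2 overlap by 1 base. The letters TGGGAA were in none of the 3 windows. RefSeq promoters were matched for 26 members with 37 start sites. Of these sites 27 held a GC box, against 32.7% of all 32851 promoters, and 3 held TATAA, against 22.8%. TGGGAA was in 6 of the 37, against 21.6%. Member promoters had a median GC content of 64.0%, against 52.4% for all promoters. A match is a run of letters and not a shown site of binding.

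Sema3g (ENSMUSG00000021904), a secreted semaphorin of endothelial cells that signals through Nrp2, spanned more of the log2(FPKM + 1) scale than any other member, with a difference of 3.87 between its lowest and highest group. It was at 0.141 FPKM in long-telomere wild type valves and at 4.06 FPKM in long-telomere heterozygous valves. Short-telomere valves had 2.42 FPKM when labelled wild type and 15.6 FPKM when labelled heterozygous. Its lowest group, long-telomere wild type, and its highest, short-telomere heterozygous, were 111-fold apart as plain FPKM, where the low values of Sema4g gave 119-fold. Both Notch1 differences were positive, with a log2 fold of 2.15 with long and 2.28 with short telomeres on the log2(FPKM + 1) scale, which damps low values. Both telomere differences were positive too, at 1.58 in wild type and 1.72 in heterozygous valves.

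Sema3g was the sole member with a call in the authors' deposited table, which marks genes that differ between pairs of groups. It was called higher in long-telomere heterozygous valves, in short-telomere wild type valves and in short-telomere heterozygous valves, each against long-telomere wild type valves. As assigned, these 3 calls share the reference group, where Sema3g was at 0.141 FPKM. The first of them stood in column 8, whose header, shared with column 9, names the short-telomere groups. Its pair was taken from the FPKM, since every gene called there differed by at least 4.67-fold between the long-telomere groups. Taken by its header, it would be a call between the short-telomere groups. Of all genes, 0.144%, 0.437% and 0.216% were called higher in these comparisons, 1.58% were called in any comparison and 0.243% in at least 3. With the columns so assigned, no member was called between the short-telomere groups or between the heterozygous groups. There the authors' deposited table called 0.476% and 0.432% of all genes in either direction. Sema3g there stood 6.46-fold and 3.85-fold higher. The 10 endothelial markers summed to 313, 263, 453 and 549 FPKM in the order long-telomere wild type, long-telomere heterozygous, short-telomere wild type and short-telomere heterozygous. Of the 10, 8 were higher and 2 lower in the last group than in the first. Vwf, 1 of the lower ones, was at 23.7, 5.17, 24.2 and 6.21 FPKM. The 4 adipocyte markers summed to 105, 168, 287 and 627 FPKM in the same order of groups. Fabp4, which endothelial cells also express, made up 103, 165, 278 and 626 FPKM of that. The other adipocyte markers, Cidec, Plin1 and Adipoq, were lower in the last group than in the first, with Adipoq listed at 0 there. The part of these cell types in the Sema3g values was not tested, and in whole leaflets fewer cells of a type and less RNA per cell cannot be told apart.

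**Figure D1:**
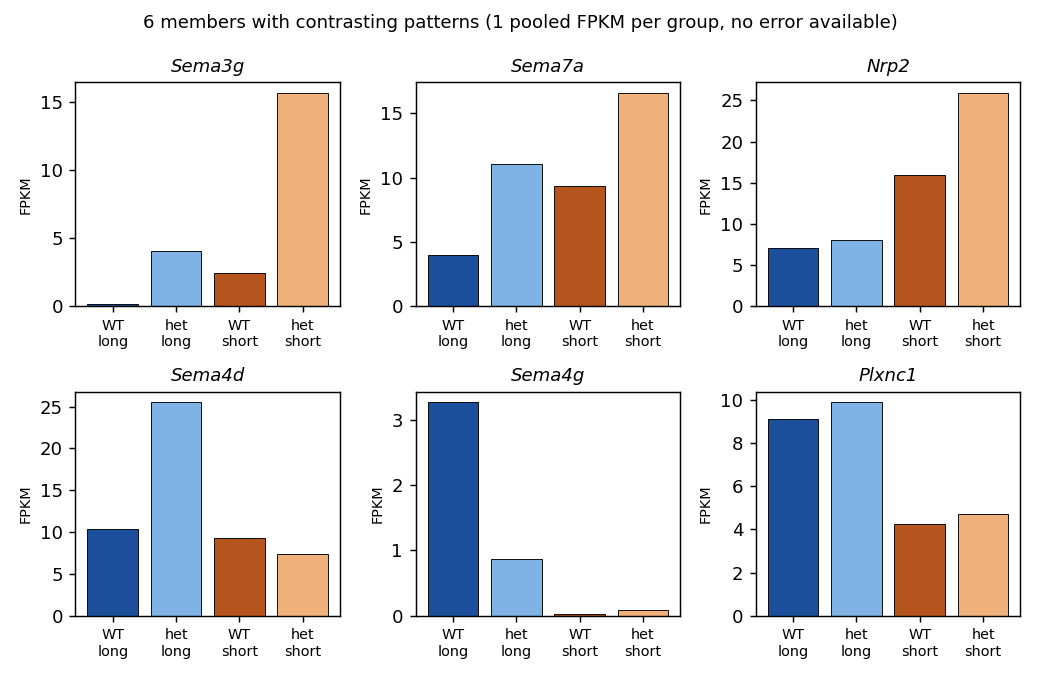
FPKM (vertical axis, from 0, scaled separately in each panel) of 6 members in the 4 groups, 1 pooled value per bar and no error bars because none can be had. Sema3g, Sema7a and Nrp2 were highest in short-telomere valves labelled heterozygous, Sema4d stood out in long-telomere heterozygous valves, and Sema4g and Plxnc1 were low in both short-telomere groups.

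Among the other class 3 semaphorins, Sema3f led. Sema3f, a ligand of Nrp2 that repels growing vessels and axons, was at 23.3 FPKM in long-telomere wild type and 17.3 FPKM in long-telomere heterozygous valves. Short-telomere valves had 9.98 FPKM when labelled wild type and 22.2 FPKM when labelled heterozygous. The short-telomere wild type group was the low one, with a log2 fold of -1.15 against long-telomere wild type, or -0.93 after median scaling, and the genotype difference with short telomeres was 1.08. Sema3c, which guides cardiac neural crest cells into the outflow tract, was lowest in that group as well. Its values were 7.45 and 5.36 FPKM with long telomeres and 4.14 and 7.03 FPKM with short, wild type first.

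Sema3d, which acts on endothelial and neural crest cells, was at 6.63 and 4.91 FPKM with long telomeres and 5.56 and 8.66 FPKM with short, wild type first. Sema3a, the founding axon repellent and a ligand of Nrp1, was at 4.06, 3.77, 7.41 and 4.36 FPKM in the same order of groups. Its highest value lay in short-telomere wild type valves, where Sema3c and Sema3f were lowest. Sema3b, which competes with VEGF for neuropilins, was at 8.85 and 6.03 FPKM with long and 4.51 and 4.98 FPKM with short telomeres. Sema3e, the direct ligand of Plxnd1, was the lowest of the class, at 0.321 and 0.151 FPKM with long telomeres, listed at 0 in short-telomere wild type valves and at 0.0271 FPKM in the last group. The genes of Sema3a, Sema3c, Sema3d and Sema3e all lie on chromosome 5 in the GENCODE annotation of GRCm38, and their order of groups differed. Of the 7 class 3 genes, 6 were lower in heterozygous valves with long telomeres, where 43.6% of all genes were lower. With short telomeres 6 were higher, where 53.5% of all genes were higher. Of those 6, Sema3e was higher by a log2 fold of only 0.04 and Sema3b by 0.12. Sema3g was higher at both telomere lengths and Sema3a was lower at both.

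Sema4d was the class 4 member that differed most in level between long-telomere heterozygous valves and the rest. Known as CD100 on T cells, and present on platelets too, it binds Plxnb1 and Plxnb2. It was at 10.4 FPKM in long-telomere wild type valves, 25.5 FPKM in long-telomere heterozygous valves, and 9.24 and 7.34 FPKM in the short-telomere groups labelled wild type and heterozygous. Long-telomere heterozygous valves thus stood apart from the other groups, with log2 folds of 1.22 for the genotype and -1.67 for telomeres. The 9 T cell and thymocyte markers summed to 131, 1246, 177 and 19.7 FPKM in the same order, and so had the same highest and lowest groups. The 7 platelet markers summed to 3144, 121, 2001 and 401 FPKM and were lowest where Sema4d was highest. The part of T cells in the Sema4d value was not tested.

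Other class 4 genes followed several patterns. Sema4c, a Plxnb2 ligand, was at 5.64 and 3.12 FPKM with long and 7.05 and 10.4 FPKM with short telomeres, wild type first, a log2 fold of 1.47 for telomeres in heterozygous valves. Sema4b was at 8.53, 6.66, 2.91 and 6.04 FPKM in the same order, lowest in short-telomere wild type valves by a log2 fold of -1.29 against long-telomere wild type. Sema4g was highest where Sema3g was lowest, at 3.27 FPKM in long-telomere wild type and 0.875 FPKM in long-telomere heterozygous valves. In the short-telomere groups it was at 0.0274 and 0.0935 FPKM, both close to 0. The remaining class 4 genes were low throughout, with Sema4a, a semaphorin of immune cells, at 1.83 to 4.15 FPKM and Sema4f at 0.559 to 0.984 FPKM.

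Classes 5 and 6 were lower in long-telomere heterozygous than wild type valves in all 6 genes, with a median log2 fold of -0.94. Of all genes 43.6% were lower, with a median of 0.09. Sema5a, whose thrombospondin repeats bind matrix glycans, was at 17.4 and 8.8 FPKM with long telomeres. With short telomeres it was at 14.9 and 8.02 FPKM, wild type first, so that both heterozygous groups lay below both wild type groups. Sema5b was at 1.8, 0.129, 0.328 and 0.0761 FPKM in the same order. Sema5b was thus highest in long-telomere wild type valves and below 1 FPKM in the other groups.

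In class 6, Sema6d, a ligand of Plxna1 that shapes the heart tube and its trabeculae, was at 20.7 and 12 FPKM with long telomeres and 18.3 and 14.3 FPKM with short. Sema6a, a ligand of Plxna2 and Plxna4, was at 17.2, 9.31, 17.2 and 13.4 FPKM. For both genes the 2 groups labelled heterozygous were the lower ones. Sema6c was at 3.03, 0.828, 0.728 and 0.434 FPKM and Sema6b at 4.25, 1.7, 1.84 and 2.07 FPKM, each highest in long-telomere wild type valves. The 5 mesothelial markers summed to 49.4, 12.8, 21.2 and 5.63 FPKM, the same order of groups as Sema5b. The 7 smooth muscle markers summed to 1221, 278, 618 and 490 FPKM, the same order as Sema6d. The 7 platelet markers, at 3144, 121, 2001 and 401 FPKM, had that order too. Single markers could differ from their list, as the smooth muscle marker Des was highest in short-telomere heterozygous valves, at 96.1 FPKM. The part of these cell types in the class 5 and 6 values was not tested.

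Sema7a, the only class 7 semaphorin, signals through Plxnc1 and beta1 integrin and is a blood group antigen on red cells. It was at 4.01 FPKM in long-telomere wild type valves, 11.0 FPKM in long-telomere heterozygous valves, and 9.32 and 16.6 FPKM in the short-telomere groups labelled wild type and heterozygous. Its log2 folds for the Notch1 genotype were 1.26 and 0.77 with long and short telomeres, and those for telomeres were 1.04 and 0.55 in wild type and heterozygous valves. Sema7a, Nrp2, Sema3g and Plxnd1 were the members that were higher in all 4 of these differences, and after median scaling they still were. Its receptor Plxnc1, found on myeloid cells and melanocytes, was lower in both short-telomere groups. Plxnc1 was at 9.14 and 9.89 FPKM with long and 4.27 and 4.71 FPKM with short telomeres, log2 folds of -0.94 and -0.93. The ratio of Sema7a to Plxnc1 FPKM was 0.439, 1.12, 2.18 and 3.52 in the order of groups above. The 6 erythroid markers summed to 11720, 4950, 21575 and 11052 FPKM in that order. The 4 melanocyte markers in the table summed to 138, 156, 87.8 and 27.4 FPKM. The 8 macrophage markers in the table summed to 536, 669, 435 and 1050 FPKM and the 7 neutrophil markers to 16.1, 43.7, 1761 and 169 FPKM, so that neither myeloid list was lower in both short-telomere groups. The part of these cell types in the Sema7a and Plxnc1 values was not tested.

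Both A and B plexins were lower in heterozygous valves at either telomere length, with 1 exception. With long telomeres all 7 were lower, with a median log2 fold of -0.61, where 43.6% of all genes were lower and their median was 0.09. With short telomeres 6 of 7 were lower, with a median of -0.51, against 42.6% and 0.06 for all genes, and Plxna2 was higher by 0.21. Several marker lists were lower in the same comparisons. Of the smooth muscle markers 7 of 7 were lower with long and 6 of 7 with short telomeres, of the mesothelial ones 5 of 5 in both, and of the platelet ones 7 of 7 in both. Erythroid markers were lower in 5 and 6 of 6, and interstitial cell or fibroblast markers in 9 and 6 of 10. Endothelial markers were lower in 8 of 10 with long but 2 of 10 with short telomeres. Of the 8 macrophage and 8 cardiomyocyte markers, 6 each were higher with long telomeres, and 7 and 8 with short. The part of these cell types in the plexin values was not tested. The summed FPKM of the 7 A and B plexins was 99.0 and 55.8 with long and 80.9 and 54.3 with short telomeres, wild type first.

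Plxna4, a receptor for Sema3a with Nrp1 and for Sema6a, was at 27.7 and 11.8 FPKM with long and 22.4 and 13.7 FPKM with short telomeres. Plxna1, the receptor of Sema6d, was at 14.7 and 8.69 FPKM with long and 18.3 and 7.92 FPKM with short telomeres, log2 folds of -0.70 and -1.11. In both genes the heterozygous groups lay below the wild type groups. Plxna2, which takes part in outflow tract septation, was at 17.4, 9.91, 12.1 and 14.2 FPKM and lacked that order. Plxna3 was at 2.7, 1.76, 1.83 and 0.996 FPKM.

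Plxnb2 was the most abundant of the B plexins, which bind class 4 semaphorins, at 31.8 and 21.0 FPKM with long and 22.6 and 15.9 FPKM with short telomeres. Plxnb1 was at 4.08, 2.33, 3.03 and 1.4 FPKM in the same order. Both were thus highest in long-telomere wild type valves and lowest in the group labelled with both changes. Plxnb3 was at 0.189 to 0.591 FPKM. GENCODE places exons of an opposite-strand gene over exons of 4 members, Plxna1, Plxna4, Plxnb1 and Sema4c. Reads of such pairs cannot be told apart without strand, and no strand setting is given in the sources used here.

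Plxnd1, the endothelial receptor of Sema3e, had the smallest ratio between its highest and lowest FPKM in the family, 1.36, at 25.1 and 30.7 FPKM with long and 31.1 and 34.3 FPKM with short telomeres. The ratio of its FPKM to that of Cdh5, the endothelial cadherin, was 0.421, 0.603, 0.352 and 0.282. The gene was thus highest in the short-telomere group labelled heterozygous while its ratio to Cdh5 was lowest there. This depends on the endothelial gene taken. Tie1, another endothelial marker, was at 20.0, 11.5, 18.3 and 19.9 FPKM in the same order. It was highest in long-telomere wild type valves, where Plxnd1 was lowest. On the log2(FPKM + 1) scale of the plot of all members by group, Sema4f, Sema3e and Plxnb3, all below 1 FPKM, spanned less.

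**Figure D2:**
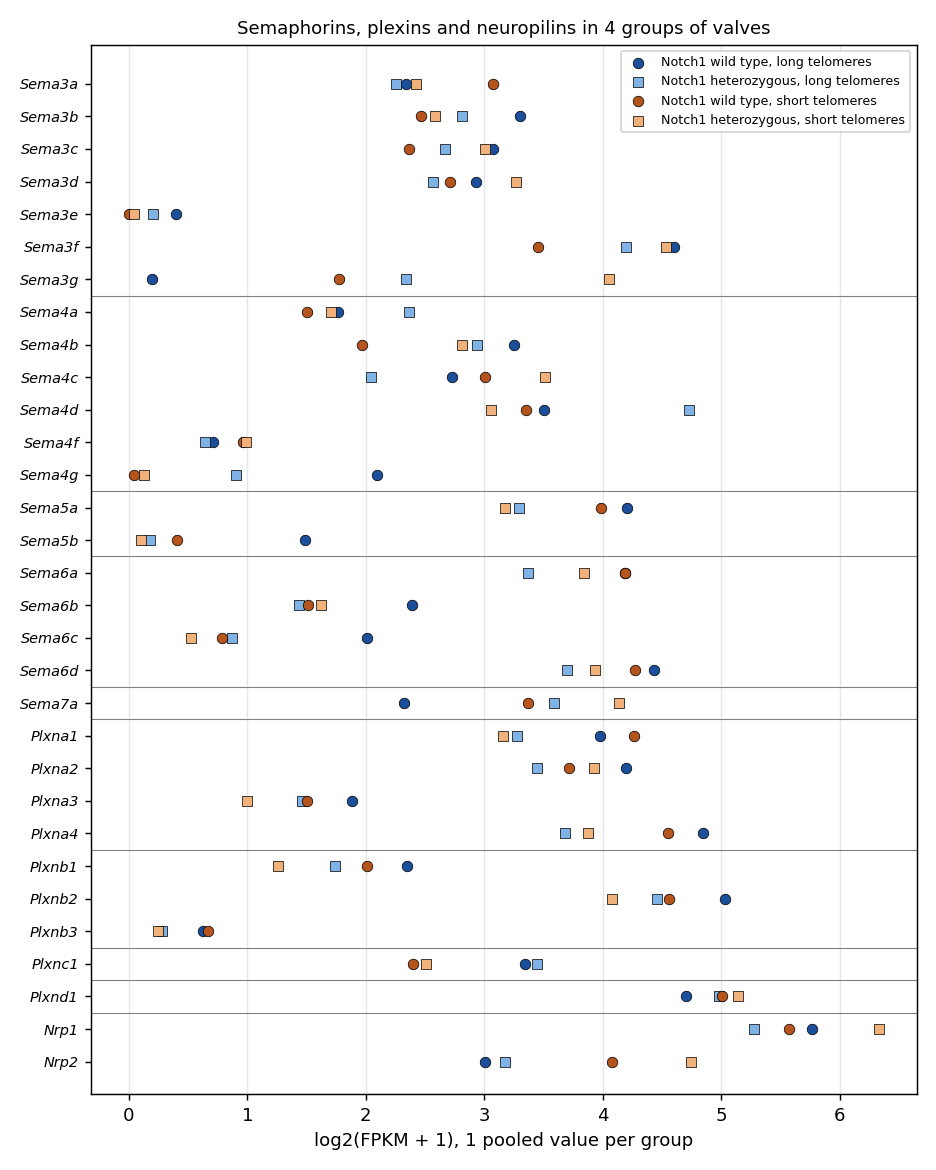
Level of each of the 31 members, as log2(FPKM + 1), with 1 point per group and horizontal lines between structural classes; circles are Notch1 wild type and squares heterozygous, blue long and orange short telomeres. Sema3g spreads from 0.141 to 15.6 FPKM, Plxnd1 only from 25.1 to 34.3 FPKM, and both squares of Sema5a, Plxna1 and Plxna4 lie left of the circles.

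The neuropilins stood highest in the short-telomere group labelled heterozygous. Nrp1, a co-receptor of Sema3a and VEGF on endothelial cells, was the most abundant member in every group, at 53.4 and 37.7 FPKM with long and 46.7 and 79.6 FPKM with short telomeres, wild type first. Its genotype difference turned sign between telomere lengths, with log2 folds of -0.49 and 0.76. Nrp2, the co-receptor of Sema3f and of VEGF-C in veins and lymphatics, was at 7.05 and 8.05 FPKM with long and 15.9 and 25.9 FPKM with short telomeres. Both short-telomere groups thus lay above both long-telomere groups, with log2 folds of 1.07 and 1.57. The ratio of Nrp2 to Nrp1 FPKM was 0.132 and 0.213 with long and 0.341 and 0.325 with short telomeres. The ratio of Nrp1 to Cdh5 was 0.894, 0.741, 0.528 and 0.656 in the order of groups used above. Nrp1 was thus lower relative to Cdh5 with short telomeres, but this depends on the endothelial gene taken. Pecam1, another endothelial marker, was at 96.1, 106, 108 and 146 FPKM in that order. In heterozygous valves Pecam1 differed between telomere lengths by a smaller factor than Nrp1 did. Kdr, the main VEGF receptor kinase of endothelium, was at 12.6, 9.87, 34.8 and 41.9 FPKM.

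**Figure D3:**
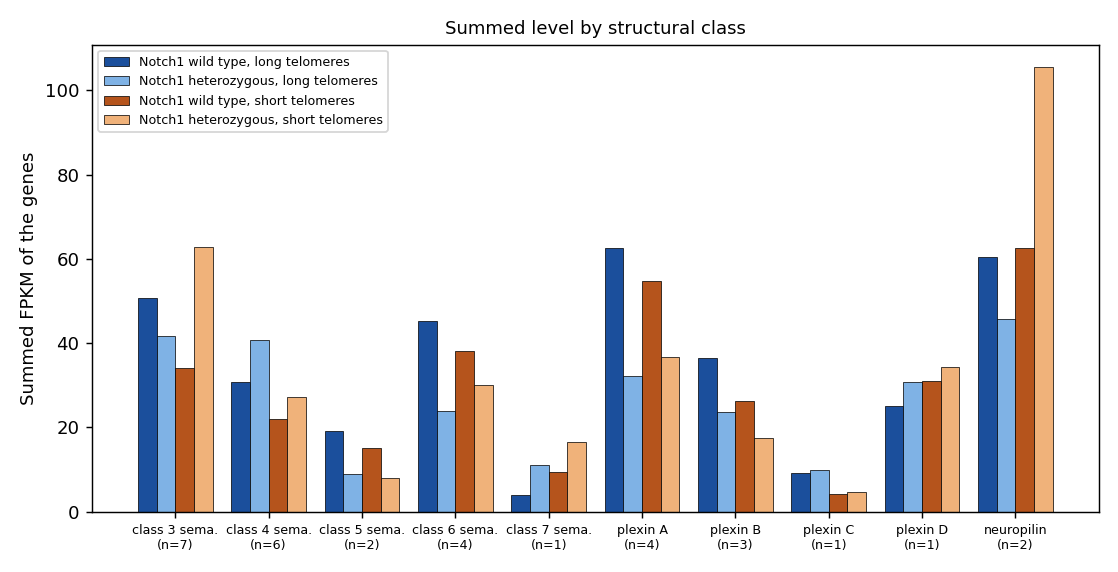
Summed FPKM of the genes of each structural class (bars, axis from 0) in the 4 groups, with the number of genes under each class. Plexin A and B and semaphorin classes 5 and 6 are lower in both heterozygous groups than in the wild type group of the same telomere length, and the neuropilins reach 105.5 FPKM in the short-telomere group labelled heterozygous.

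Counted over the family, the long-telomere wild type group held the highest value of 17 of the 31 members, where 28.5% of all genes were highest in it. With long telomeres 24 members were lower and 7 higher in heterozygous valves, against 43.6% and 55.9% of all genes, and the median log2 fold was -0.42, against 0.09. In these counts, here and below, 2-fold means a difference of 1 on the log2(FPKM + 1) scale, which is stricter than the plain FPKM ratio. Past 2-fold, 3 members were higher and 4 lower, against 10.9% and 7.53% of all genes, so that these counts are near the background. The higher ones were Sema3g, Sema7a and Sema4d, and the lower ones Plxna4, Sema4g, Sema5b and Sema6c. Exons are long in this family, with 21 members at or above the upper quartile of exon length. All expressed genes of such length, with a mean of at least 1 FPKM, had a median of 0.03, and the 21 members had one of -0.49.

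With short telomeres 13 members were lower and 18 higher in the group labelled heterozygous, against 42.6% and 53.5% of all genes, and the median was 0.09, against 0.06. Past 2-fold, Sema3f and Sema3g were higher and Plxna1 was lower, against 12.5% and 10.8% of all genes. The 2 genotype comparisons share no mice. In both, 12 members were lower, against 20% of all genes and 25.2% of expressed genes of that exon length. They were 6 of the 7 A and B plexins, Sema5a, Sema5b, Sema6a, Sema6c, Sema6d and Sema3a. Another 6 were higher in both, against 31.3% of all genes: Sema3g, Sema7a, Nrp2, Plxnd1, Plxnc1 and Sema4a. These 2 sets kept all their members under each other scaling tried, and median scaling added Sema4f to the lower set.

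**Figure D4:**
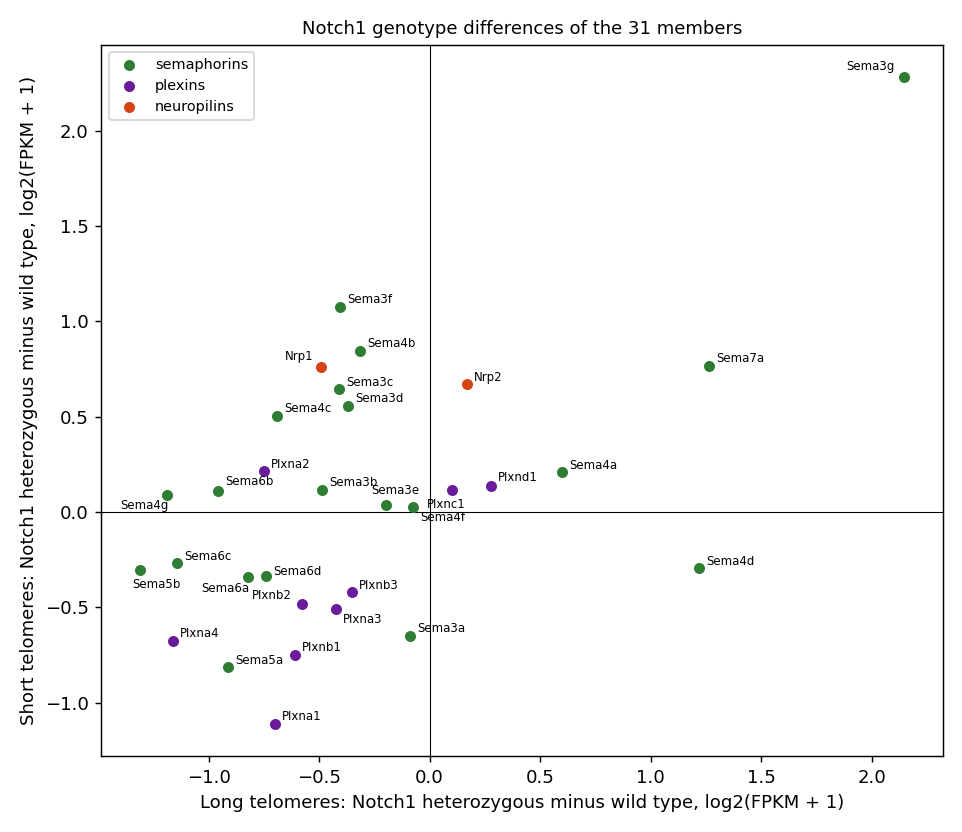
Notch1 genotype difference, heterozygous minus wild type on the log2(FPKM + 1) scale, with long telomeres (horizontal) and short telomeres (vertical), 1 point per member. The lower left corner holds the 12 members lower in both, 6 of them plexins, Sema3g lies alone at upper right at 2.15 and 2.28, and Sema4d lies at lower right at 1.22 and -0.30.

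The difference between the 2 genotype differences, short minus long telomeres, passed 1 on the log2 scale upward in 8 members and downward in 1, against 16.5% and 17.4% of all genes. The 8 were Sema3f (1.48), Sema4g (1.28), Nrp1 (1.25), Sema4c (1.19), Sema4b (1.16), Sema6b (1.07), Sema3c (1.05) and Sema5b (1.01), and the 1 was Sema4d (-1.52). The median over members was 0.40, against 0.00 for all genes. No test of this difference can be made from pooled values.

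In wild type valves, 22 members were lower and 9 higher with short telomeres, against 61.1% and 36.6% of all genes. Past 2-fold, Sema3g, Nrp2 and Sema7a were higher and Sema4g, Sema4b, Sema6c, Sema3f and Sema5b lower, against 8.9% and 20.9% of all genes. With equal totals without mitochondrial genes Nrp2 (0.98) and Sema7a (0.95) came below 2-fold, which left 1 higher and 6 lower. In heterozygous valves 15 were lower and 16 higher, against 64.9% and 34.3%. Past 2-fold, Sema3g, Nrp2, Sema4c and Nrp1 were higher and Sema4d was lower, against 4.71% and 16.8%. Median log2 folds were -0.26 and 0.15, against -0.23 and -0.24 for all genes. After median scaling the splits were 17 lower and 14 higher in wild type and 11 lower and 20 higher in heterozygous valves. The 2 telomere comparisons share no mice, and 7 members were higher in both, against 16.1% of all genes, while 13 were lower in both, against 43.1%. Sema3g, Sema7a, Nrp2, Plxnd1, Sema3a, Sema4c and Sema4f made up the 7, and all 7 stayed higher under each other scaling. Median scaling raised the count to 13 higher in both, against 24.6% of all genes, and lowered the other to 10, against 32.9%, which turned the balance.

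In valves labelled with both changes, compared with valves carrying neither, 22 members were lower and 9 higher, against 58.2% and 40.1% of all genes, with a median of -0.38, against -0.16. Past 2-fold, Sema3g (3.87), Sema7a (1.81) and Nrp2 (1.74) were higher, against 7.48% of all genes. Sema4g (-1.96), Sema6c (-1.49), Sema5b (-1.38), Plxnb1 (-1.08) and Sema5a (-1.03) were lower, against 17.2%. The values for Plxnb1 and Sema5a came to -0.97 and -0.88 after median scaling.

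Of 60 listed symbols of the wider pathway, 56 were in the table, and the list was likewise written with results of these data known. With long telomeres 1 was higher and 5 lower past 2-fold in heterozygous valves, against 10.9% and 7.53% of all genes. By any amount 18 were higher and 38 lower, against 55.9% and 43.6% of all genes. Their median log2 fold was -0.30, against 0.09. The GTPase Rras2 was the higher one, at 5.09 and 18.1 FPKM, while Cntn2, an adhesion molecule of axons, was at 16.7 and 4.17 FPKM. With short telomeres 2 were higher and 1 lower past 2-fold, against 12.5% and 10.8% of all genes, and Micall2, a relative of the MICAL enzymes that act on actin below plexins, was at 0.286 and 7.28 FPKM. For telomeres in wild type valves 2 were higher and 10 lower past 2-fold, against 8.9% and 20.9%. The pathway counts past 2-fold in these 3 comparisons were thus near or below the background. The authors' deposited table called 1 of the 56 there, Cntn2, lower at 16.7 and 0.486 FPKM, where it called 0.249% of all genes lower. The others of large difference in that comparison were Ptk7 (13.3 and 2.77 FPKM), Micall1 (27.8 and 6.74 FPKM), Dpysl4 (4.21 and 0.64 FPKM) and Micall2 (2.8 and 0.286 FPKM), and Rras2 was again the high one at 17.9 FPKM.

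In heterozygous valves short telomeres went with 3 genes higher and 4 lower past 2-fold, against 4.71% and 16.8% of all genes, led by Kdr at a log2 fold of 1.98. For both changes against neither, 4 were higher and 10 lower, against 7.48% and 17.2%, which is near the background, with Kdr at 1.66, Cntn2 at -2.70, Nrcam at -2.0, Ptk7 at -1.87, Mical1 at -1.71 and Dpysl4 at -1.59. Of the 5 VEGF ligands that use neuropilins, Vegfa alone passed 2-fold in any comparison. It was lower with short telomeres in wild type valves, at -1.02, where 20.9% of all genes were lower past 2-fold. Vegfa was at 47.0, 25.4, 22.7 and 27.2 FPKM, highest in long-telomere wild type valves, and Vegfc at 17.3, 9.94, 15.6 and 19.9 FPKM, lowest in long-telomere heterozygous valves as Nrp1 was. Trem2 and Tyrobp, which join Plxna1 in the Sema6d receptor of myeloid cells, were at 2.49, 4.53, 0.96 and 4.37 FPKM and at 178, 232, 351 and 302 FPKM. Neither had the order of groups of Plxna1.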

How the data were processed

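Leaflet cells were dissociated with collagenase and their cDNA was amplified by a NuGen Ovation kit, per the labels' protocols. The submitters' processing notes list FastQC, TopHat, SAMtools and Picard, and the mm9 build, with no roles. The deposited FPKM, which the file headers give for each group as a whole, leave the spread between mice and the depth unknown. How they were computed is not given in the sources used here. Beside them stand 5 columns of 0 or 1, read as the authors' calls. Columns 8 and 9 share a header, which names the short-telomere groups. Each column was given to the pair of groups in which every called gene differed by at least 4.25-fold. Column 8 thus went to the long-telomere groups, against its header.

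Members were taken by gene name, and all 31 matched GENCODE vM21 by identifier. Members and lists were chosen with earlier results of these data known. Log2 folds are differences of log2(FPKM + 1) between 2 pooled values, with no p-value. All genes were kept. By a fixed rule, 25 members that reached 5 FPKM, passed 2-fold or were called were to be given in full, and the other 6 (up to 4.25 FPKM) by range. Pathway genes were named past a log2 fold of 1.5, at most 6 per comparison, and Vegf ligands, Trem2 and Tyrobp were added after their values were seen. Alternatives were a pseudocount of 0.1, a mean of at least 1 FPKM, median scaling, equal totals without 24 mitochondrial genes, and 1.5-fold and 4-fold. No coordinates are given for mm9. Code was tested on simulated data. The tools were pandas 2.3.3, numpy 2.4.6 and matplotlib 3.10.9 under Python 3.11.15.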

Additional observations from a re-analysis of the deposited data

How the results depend on the processing

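Each group is 1 pooled value, so no replicate could be left out, and the depth of single values is unknown. No paired analysis was possible because the columns carry no replicate number. At 1.5-fold, 16 and 12 members passed for the Notch1 genotype with long and short telomeres, 13 and 9 for telomeres in wild type and heterozygous valves, and 16 for both changes against neither. At 4-fold the counts were 1, 1, 1, 0 and 1, where 2-fold gave 7, 3, 8, 5 and 8. A pseudocount of 0.1 gave 7 members for the genotype with short telomeres, 13 for both changes against neither and 14 for the difference of genotype differences (9 with 1). With it the medians were -0.59 for the genotype with long telomeres, -0.49 for both changes and 0.51 for the difference of differences. Median scaling moved the telomere medians to -0.068 in wild type and 0.36 in heterozygous valves, while those of all genes went from -0.23 and -0.24 to -0.08 and -0.06. Among the 21 members of long exon length, an alternative added after the data were seen, the median turned to -0.30 for the genotype with short telomeres and to -0.029 for telomeres in heterozygous valves. The other medians kept their direction, and the other totals past 2-fold stayed within 1.5 times. Their splits moved more, as for telomeres in wild type valves, with 3 higher and 5 lower by the reported setting, 1 and 6 without mitochondrial genes, 3 and 8 with a pseudocount of 0.1 and 3 and 3 after median scaling. After median scaling 13 members, not 7, were higher in both telomere comparisons. For single members past 2-fold, median scaling took 4 values below 2-fold and equal totals without mitochondrial genes took 2, Nrp2 (0.98) and Sema7a (0.95) for telomeres in wild type valves, and none of these turned direction.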
